A study of Rattus norvegicus with 15 samples.

Results

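The G1 cyclins and their regulators are described here as 10 genes of the 37367 gene sums in a table of rat cells exposed to x-rays. They were 3 D cyclins (Ccnd1, Ccnd2, Ccnd3), 2 E cyclins (Ccne1, Ccne2), cyclin A2 (Ccna2), 3 inhibitors of cyclin-dependent kinases (Cdkn1b, Cdkn1c, Cdkn2c) and the retinoblastoma gene (Rb1). Members were chosen by gene name. The FPKM values of the rows with that name, and of unnamed rows assembled in a locus that held only that name, were added for each library. FPKM is a read level divided by transcript length and library size, so levels can be set side by side between genes.

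In G1, D cyclins bind the kinases CDK4 and CDK6, and E cyclins bind CDK2. These complexes phosphorylate the retinoblastoma protein, which otherwise holds back the E2F factors that switch on the genes of S phase. Cyclin A2 takes over CDK2 in S phase and is itself an E2F target. The products of Cdkn1b (p27) and Cdkn1c (p57) inhibit several cyclin-CDK complexes, whereas that of Cdkn2c (p18) binds CDK4 and CDK6.

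All 15 libraries came from primary cultures labelled as brain microvascular endothelial cells (BMECs), grown from cerebral microvessels of Spraque-Dawley littermates of both sexes, aged 2 to 3 weeks. The 5 groups of 3 libraries were unexposed control cells cultured for 12 h, and cells cultured for 12 h or 24 h after 5 Gy or 20 Gy, given at 60% confluence. No unexposed 24 h culture was used here, so in the 24 h groups the effects of exposure and of longer culture cannot be told apart. The libraries are stated to be biological replicates, and no label ties a library to an animal. The step between low FPKM values put the aligned sequence of each library between 5.44 and 7.49 gigabases.

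The endothelial label went against its markers. Of 14 endothelial markers, 12 were in the table and 3 had a mean FPKM of at least 1 in each group, with summed levels of 17.3 to 32.8 over all libraries. Those 3 were Slc2a1 (control mean 23.6), which made up most of the sum, Flt1 (2.84) and Egfl7 (2.51). Emcn and Tie1 were listed at 0 in every group, and the mean of Cdh5, the cadherin of endothelial junctions, was at most 0.191. All 8 fibroblast markers had a mean of at least 1 in every group. Their summed level was 4198 to 4573 in the control libraries, 2350 to 4033 at 12 h and 917 to 2206 at 24 h. Pericyte and smooth muscle markers summed to 154 to 162 in the control libraries and 51.3 to 91.4 at 24 h, astrocyte markers to 517 to 764 and 323 to 436, microglial markers to 21.2 to 25.2 and 8.57 to 13.3, and neuronal markers to 61.0 to 74.8 and 22.4 to 40.2. Most of the astrocyte sum came from Gja1 (control mean 623), most of the microglial sum from Tmem119 (23.1) and most of the neuronal sum from Stmn2 (58.7). Aldh1l1, also on the astrocyte list, went the other way, with means of 9.52 in the control group and 20.8 and 23.7 at 24 h. The astrocyte sum was 629 to 1177 at 12 h after 5 Gy and 467 to 677 at 12 h after 20 Gy. The defining genes Aqp4, Cx3cr1 and Rbfox3 were listed at 0 in every group, as were Abcc9 and Kcnj8 of the pericyte and smooth muscle list. Most of the sum of that list came from Anpep (control mean 96.7) and Pdgfrb (44.5). Its marker Myh11 went the other way, with means of 0.061 in the control group and 1.29 and 1.18 at 24 h. At 24 h, 5 (5 Gy) and 6 (20 Gy) of the 8 fibroblast markers were called lower in the tests given below, beside 20.8% and 23.3% of all genes. Fn1 was the largest part of their sum, with a control mean of 2387 FPKM. Pdgfra was not among those called, with means of 52.1 in the control group and 60.8 and 51.6 at 24 h. The part of any of these cell types in the gene changes given below was not tested. In bulk RNA, fewer cells of a type and less RNA per cell cannot be told apart.

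Promoters of 4 members that changed are shown because 3 of them fell and 1 rose. They are RefSeq sequences on GRCr8, a later build than the Rnor_6.0 of the expression table, from 250 bases before to 50 after the gene start. Of the 10 members, 5 had an entry; Ccnd1, Ccnd2, Ccne2, Ccna2 and Cdkn1c had none. Capitals mark the GC box (GGGCGG on either strand) and the E2F motif (TTTCCCGC, TTTCGCGC, TTTGGCGC or TTTGCCGC on either strand), which did not overlap here.
Ccne1, chr1:99927860-99928159, minus strand: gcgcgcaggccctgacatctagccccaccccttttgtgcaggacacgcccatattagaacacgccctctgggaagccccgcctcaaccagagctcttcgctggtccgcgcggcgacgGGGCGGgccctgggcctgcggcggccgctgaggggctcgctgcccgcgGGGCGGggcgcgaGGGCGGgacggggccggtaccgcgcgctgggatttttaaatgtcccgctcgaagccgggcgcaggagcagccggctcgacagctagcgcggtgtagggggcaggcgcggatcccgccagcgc
Ccnd3, chr9:20897826-20898125, minus strand: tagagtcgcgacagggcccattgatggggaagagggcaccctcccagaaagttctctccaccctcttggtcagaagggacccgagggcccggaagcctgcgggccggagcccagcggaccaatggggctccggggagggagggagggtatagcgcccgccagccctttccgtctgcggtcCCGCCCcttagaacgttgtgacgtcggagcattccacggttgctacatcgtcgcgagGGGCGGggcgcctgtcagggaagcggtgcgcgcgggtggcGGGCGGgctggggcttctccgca
Cdkn2c, chr5:129644842-129645141, minus strand: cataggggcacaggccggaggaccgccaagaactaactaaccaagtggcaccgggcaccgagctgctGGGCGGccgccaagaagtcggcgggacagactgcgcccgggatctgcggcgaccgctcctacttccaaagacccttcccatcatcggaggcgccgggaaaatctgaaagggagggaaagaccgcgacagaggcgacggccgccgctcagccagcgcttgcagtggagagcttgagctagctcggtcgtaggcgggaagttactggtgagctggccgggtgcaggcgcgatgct
Rb1, chr15:54911808-54912107, minus strand: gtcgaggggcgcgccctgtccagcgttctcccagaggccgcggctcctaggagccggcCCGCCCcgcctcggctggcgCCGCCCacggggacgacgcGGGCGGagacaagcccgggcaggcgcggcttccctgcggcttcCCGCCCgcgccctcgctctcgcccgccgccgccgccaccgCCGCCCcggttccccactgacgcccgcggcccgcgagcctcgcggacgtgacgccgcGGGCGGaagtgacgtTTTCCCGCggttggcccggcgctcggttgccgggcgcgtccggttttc
The E2F motif was in 1 of the 5 member promoters, that of Rb1, and in 2.14% of 33469 promoters of this length. The GC box was in 5 of 5 and in 33.1% of all. The CCAAT box (CCAAT on either strand) was in those of Ccnd3 and Cdkn1b, and in 37.5% of all. These matches describe the letters only.

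Among the D cyclins, Ccnd3 (chromosome 9, 15404822 to 15410943, minus strand, Rnor_6.0) had the highest level. Its control libraries were at 284, 291 and 302 FPKM, the 12 h libraries at 314 to 372 after 5 Gy and 335 to 379 after 20 Gy, and the 24 h libraries at 156 to 177 and 117 to 154. Every 12 h library was above the controls and every 24 h library below them. Changes were tested with limma on log2(FPKM + 1), and a gene was called at a Benjamini-Hochberg adjusted p under 0.05 with a change of 1.5-fold or more. Ccnd3 fell by 0.82 ± 0.10 (SE) on the log2 scale at 24 h after 5 Gy (adjusted p = 1.4e-05) and by 1.12 ± 0.10 after 20 Gy (adjusted p = 1.1e-06). At 12 h its differences of 0.21 and 0.28 were not called (adjusted p = 0.169 and 0.0723). With quantile normalization the difference at 24 h after 5 Gy was -0.55, below the fold threshold.

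Ccnd1 (chromosome 1, 218090750 to 218100325, minus strand) had the largest standard error of the 10 genes in the fit, 0.34 on the log2 scale. Its levels were 43.3, 51.3 and 52.3 FPKM in the control group, 40.5, 63.9 and 76.8 at 12 h after 5 Gy, and 36.5, 55.6 and 88.3 at 12 h after 20 Gy. At 24 h they were 22.3, 32.1 and 44.1 after 5 Gy and 21.4, 33.9 and 41.5 after 20 Gy. The 12 h libraries lay on both sides of the controls, and the libraries at 24 h after 20 Gy lay below them. No difference of Ccnd1 from control was called, the largest being -0.63 ± 0.34 at 24 h after 20 Gy (adjusted p = 0.13). Its direction turned with the highest transcript at 12 h (-2.28 and -0.63, from 0.25 and 0.21, 5 Gy and 20 Gy) and with annotated rows alone at 24 h (0.55 and 0.49, from -0.61 and -0.63), none of them called.

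Ccnd2 (chromosome 4, 159674885 to 159697207, minus strand) was at 2.72 to 3.32 FPKM in the control group. Its 12 h levels were 3.11, 4.50 and 6.87 after 5 Gy and 5.15, 6.34 and 7.73 after 20 Gy, followed at 24 h by 2.49 to 3.81 and 1.55 to 3.19. Only the libraries at 12 h after 20 Gy lay apart from the controls. Ccnd2 rose there by 0.85 ± 0.24 (adjusted p = 0.0303). The call was lost on leaving out any of the 3 control libraries, or replicate 1 or 2 at 12 h after 20 Gy (adjusted p = 0.0556 to 0.1), and when annotated rows were used alone.

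**Figure D1:**
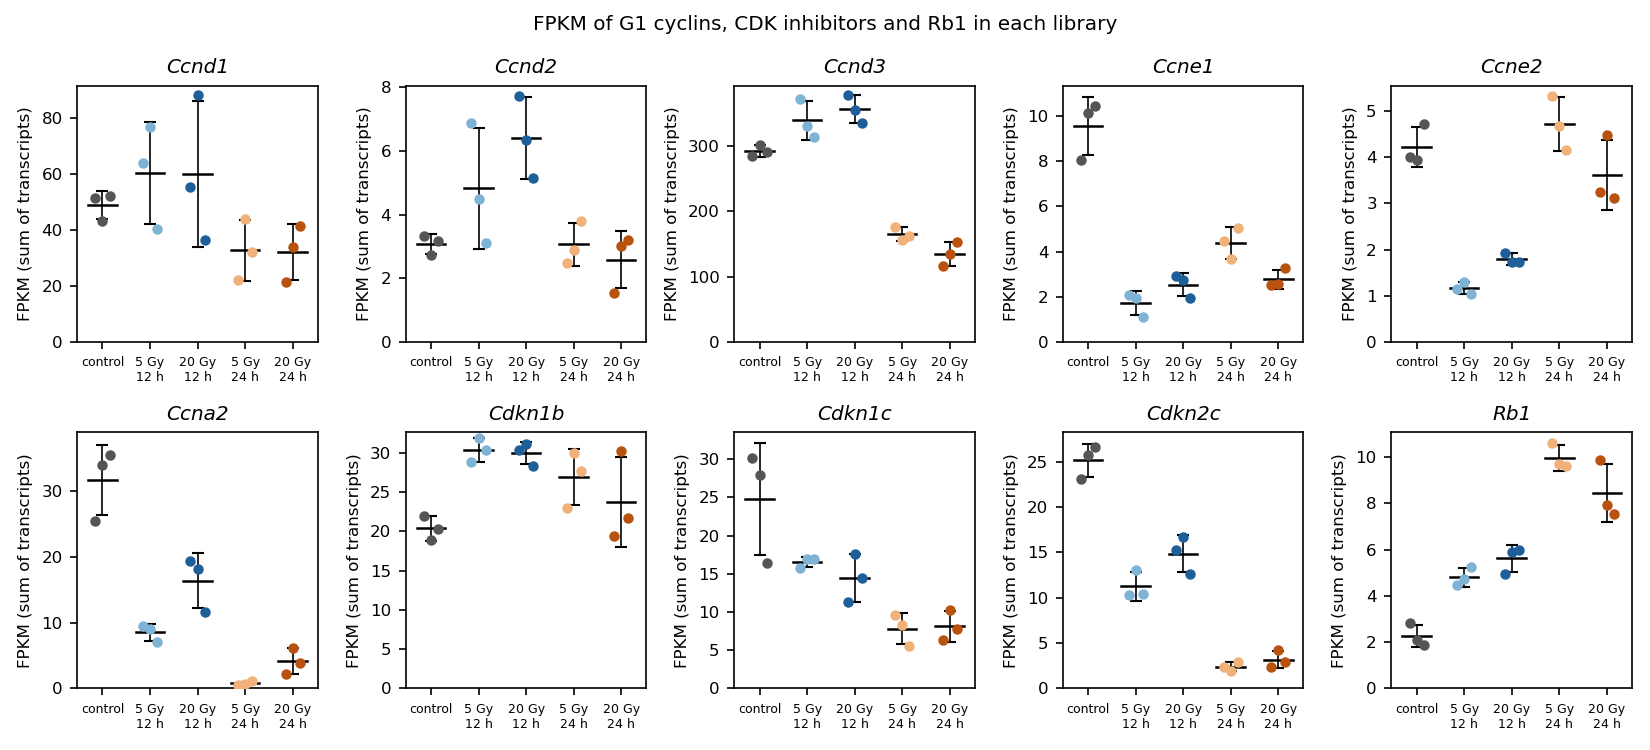
FPKM of the 10 genes (y axis, from 0) in each library (points) by group (x axis), with the mean (bar) and SD (whiskers) of 3 libraries. Ccna2 runs from 35.5 in a control library to 0.57 in a library at 24 h after 5 Gy, whereas Rb1 is lowest in the control group and highest at 24 h.

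The E cyclins, which open the way to S phase, fell at 12 h, and at 24 h Ccne1 was still called lower than control while Ccne2 was not called. Ccne1 (chromosome 1, 94485832 to 94494980, minus strand) was at 8.07, 10.2 and 10.4 FPKM in the control group, 1.12, 1.95 and 2.07 at 12 h after 5 Gy, and 1.94, 2.74 and 2.91 at 12 h after 20 Gy. The 24 h libraries held 3.65, 4.47 and 5.04 after 5 Gy and 2.53, 2.54 and 3.27 after 20 Gy. Every exposed library was below every control library. Ccne1 fell by 1.97 ± 0.17 and 1.58 ± 0.17 at 12 h (adjusted p = 1.0e-05 and 6.4e-05, 5 Gy and 20 Gy), and by 0.97 ± 0.17 and 1.48 ± 0.17 at 24 h (adjusted p = 3.1e-04 and 9.8e-06). All 4 calls were lost when the highest transcript, which held 51.8% of the sum, stood for the gene (adjusted p = 0.0557 to 0.563). The annotated row, with a mean of 0.408 FPKM, was below the filter of 0.5 and was not tested alone. Its means were 0.43 in the control group, 0.004 and 0.44 at 12 h, and 0.62 and 0.55 at 24 h. An unnamed row was at 5.54 in the control group, 0.84 and 0 at 12 h, and 1.22 and 0.48 at 24 h.

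Ccne2 (chromosome 5, 24434872 to 24446406, plus strand) was at 3.95, 4.01 and 4.72 FPKM in the control group, 1.04, 1.14 and 1.30 at 12 h after 5 Gy, and 1.72, 1.73 and 1.94 at 12 h after 20 Gy. By 24 h its levels were 4.17, 4.69 and 5.33 after 5 Gy and 3.11, 3.26 and 4.49 after 20 Gy, so that the libraries overlapped those of the controls. Ccne2 fell by 1.27 ± 0.12 and 0.90 ± 0.12 at 12 h (adjusted p = 2.7e-05 and 4.1e-04). At 24 h its differences were 0.13 (95% interval -0.14 to 0.40) and -0.19 (-0.46 to 0.08), and neither was called. The annotated row, 83.1% of the sum, had means of 4.13 FPKM in the control group and 3.36 and 2.50 at 24 h. Taken alone, it gave -0.31 at 24 h after 5 Gy, not called. Over the alternatives, the difference at 24 h after 20 Gy ran from -0.86 to -0.10, never called. The unnamed row rose from 0.029 and 0.003 at 12 h to 1.37 and 1.12 at 24 h (5 Gy and 20 Gy). The 12 h calls were lost with annotated rows alone (adjusted p = 0.128 and 0.324) and with the highest transcript (0.0814 and 0.241). Ints8, on the opposite strand, overlaps Ccne2, and whether counting used strand is not given in the sources used here.

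Ccna2 (chromosome 2, 123275881 to 123282214, minus strand), the cyclin of S phase and G2, had the lowest log2 difference from control of the 10 genes at 24 h after either dose, whereas at 12 h that of Ccne1 was lower. Its levels were 25.5, 34.0 and 35.5 FPKM in the control group, 7.04, 9.02 and 9.46 at 12 h after 5 Gy, and 11.5, 18.1 and 19.4 at 12 h after 20 Gy. The 24 h levels were 0.57, 0.71 and 1.04 after 5 Gy and 2.23, 3.84 and 6.16 after 20 Gy. No 2 of the 5 groups overlapped. It fell by 1.78 ± 0.26 and 0.93 ± 0.26 at 12 h (adjusted p = 5.4e-04 and 0.0291) and at 24 h it fell by 4.20 ± 0.26 and fell by 2.75 ± 0.26 (adjusted p = 5.1e-08 and 1.9e-06). The lowest group rested on about 50.4 to 87.8 read equivalents per library. The call at 12 h after 20 Gy was lost without control replicate 2 or 3 or without replicate 3 of the exposed group (adjusted p = 0.0907, 0.0995 and 0.122), with a pseudocount of 0.1 (0.0625) and with annotated rows alone (0.0514).

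Of the 3 CDK inhibitors, Cdkn2c and Cdkn1c fell, and Cdkn1b was not called against control. Cdkn2c (chromosome 5, 129347732 to 129352886, minus strand) was at 23.1, 25.8 and 26.6 FPKM in the control group, 10.25, 10.42 and 13.04 at 12 h after 5 Gy, and 12.7, 15.3 and 16.7 at 12 h after 20 Gy. At 24 h the levels were 1.86, 2.35 and 2.85 after 5 Gy and 2.36, 2.94 and 4.21 after 20 Gy. Every exposed library was below the controls, and every 24 h library below the 12 h libraries. It fell by 1.10 ± 0.17 and 0.73 ± 0.17 at 12 h (adjusted p = 6.1e-04 and 0.00991) and by 2.97 ± 0.17 and 2.67 ± 0.17 at 24 h (adjusted p = 2.1e-08 and 4.9e-08). Of its 6 unnamed rows, 2 did not overlap the annotated gene.

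Cdkn1c (chromosome 1, 216661080 to 216663721, minus strand) was at 16.5, 28.0 and 30.1 FPKM in the control group and 11.3 to 17.6 over both 12 h groups. In the 24 h groups it was 5.61, 8.26 and 9.63 after 5 Gy and 6.31, 7.78 and 10.3 after 20 Gy, below all 12 h and control libraries. Cdkn1c fell by 1.53 ± 0.24 and 1.48 ± 0.24 at 24 h (adjusted p = 1.2e-04 and 1.7e-04). The 12 h differences of -0.52 and -0.72 were not called (adjusted p = 0.161 and 0.0593). Without control replicate 3, the low library, both were called (-0.78 and -0.98, adjusted p = 0.0408 and 0.0159).

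Cdkn1b (chromosome 4, 168689163 to 168693964, plus strand) was at 18.9, 20.2 and 22.0 FPKM in the control group, 28.9, 30.3 and 31.9 at 12 h after 5 Gy, and 28.4, 30.4 and 31.2 at 12 h after 20 Gy. The later levels, at 24 h, were 23.0, 27.7 and 30.0 after 5 Gy and 19.4, 21.7 and 30.3 after 20 Gy. All 12 h libraries were above the controls, and those at 24 h after 20 Gy overlapped them. Its 12 h differences of 0.55 ± 0.14 and 0.54 ± 0.14 passed the adjusted p (0.0145 and 0.0195) but not the fold threshold. At 24 h the differences were 0.38 ± 0.14 and 0.19 ± 0.14 (adjusted p = 0.0318 and 0.257). Both 12 h differences passed after rescaling to TPM (0.62 and 0.59) and without control replicate 1 (0.61 and 0.59). The 5 Gy difference also passed with the highest transcript or without its own replicate 1 (0.59 each), and that at 24 h after 20 Gy with annotated rows alone (0.60). Annotated rows alone turned both 12 h differences negative, to -0.31 and -0.28 (adjusted p = 0.406 and 0.479).

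Rb1 (chromosome 15, 55083140 to 55209342, minus strand) rose in all 4 exposed groups. Its levels were 1.88, 2.10 and 2.81 FPKM in the control group, 4.45, 4.71 and 5.26 at 12 h after 5 Gy, and 4.96, 5.89 and 5.99 at 12 h after 20 Gy. By 24 h Rb1 was at 9.60, 9.69 and 10.6 after 5 Gy and 7.55, 7.90 and 9.89 after 20 Gy. Every exposed library was above the controls, and every 24 h library above the 12 h libraries. Rb1 rose by 0.84 ± 0.13 and 1.03 ± 0.13 at 12 h (adjusted p = 5.9e-04 and 1.8e-04) and by 1.76 ± 0.13 and 1.54 ± 0.13 at 24 h (adjusted p = 1.5e-07 and 5.1e-07). The 12 h calls were lost with annotated rows alone (adjusted p = 0.227 and 0.179) and with the highest transcript (0.086 and 0.0528). Lpar6, on the opposite strand, overlaps Rb1.

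Counted over the 10 genes, 1 rose and 4 fell at 12 h after 5 Gy, when 9.94% of the 17895 genes tested were called, 4.98% as higher and 4.96% as lower. At 12 h after 20 Gy, 2 rose and 4 fell, beside 8.54% of all genes, 4.9% higher and 3.64% lower. At 24 h after 5 Gy, 1 rose and 5 fell, beside 41.3% of all genes, 20.5% higher and 20.8% lower. The 24 h libraries after 20 Gy gave the same counts, 1 and 5, beside 40.3% of all genes, 17% higher and 23.3% lower. At 12 h, libraries did not overlap the controls for 7 of the 10 genes with the 5 Gy dose (38.5% of all genes) and for 8 with 20 Gy (36.8%). At 24 h this held for 7 genes with either dose, beside 67.4% (5 Gy) and 62.7% (20 Gy) of all genes, shares near that of the members. The median log2 difference of the 10 genes was -0.15, -0.26, -0.72 and -0.88 in these 4 comparisons, beside 0.03, 0.01, -0.05 and -0.14 for all genes tested. All 4 comparisons share the same control libraries.

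**Figure D2:**
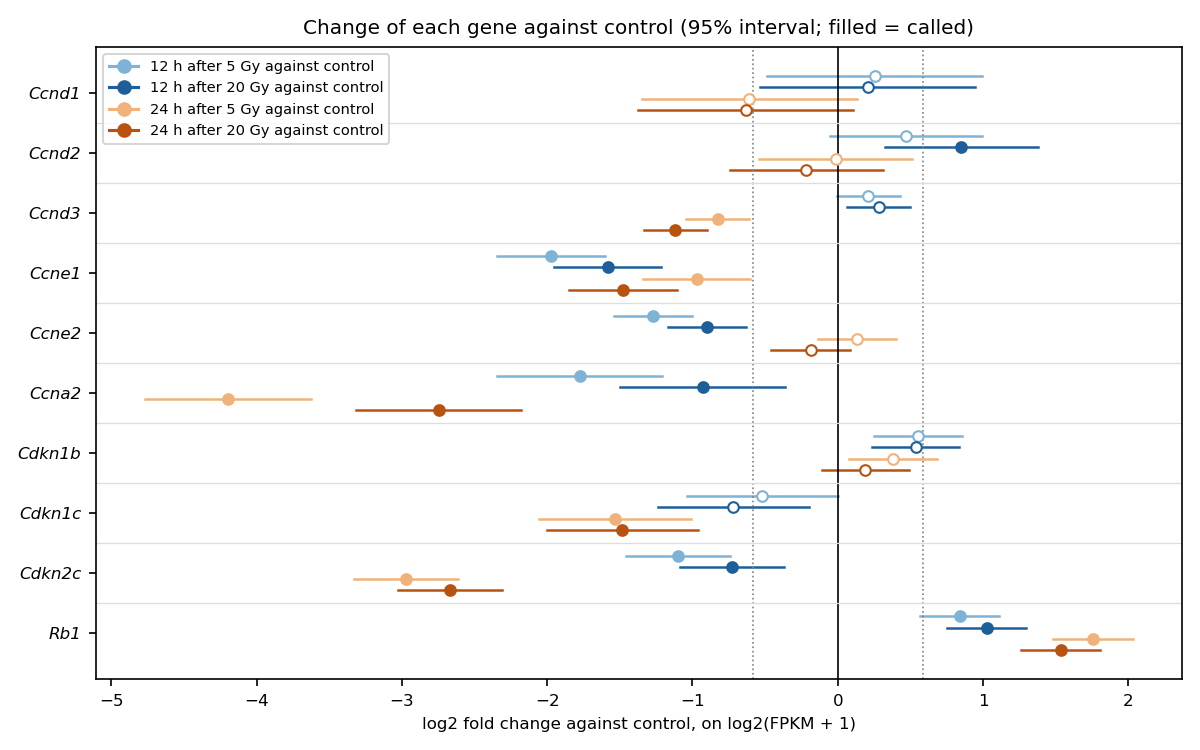
Log2 fold change against control (x axis) of each gene (y axis) in the 4 exposed groups, with 95% intervals from limma; filled points were called and dotted lines mark a 1.5-fold change. Ccna2 at 24 h after 5 Gy lies at -4.20 and Rb1 lies right of the dotted line in all 4 groups.

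Between 12 h and 24 h after 5 Gy, Ccne1, Ccne2 and Rb1 rose and Ccnd1, Ccnd3, Ccna2, Cdkn1c and Cdkn2c fell, 3 and 5 of 10 genes, beside 36.4% of all genes, 17.1% higher and 19.3% lower. After 20 Gy, Ccne2 rose and Ccnd2, Ccnd3, Ccna2, Cdkn1c and Cdkn2c fell, 1 and 5 of 10 genes, beside 36.3% of all genes, 14.1% higher and 22.1% lower. Rb1 and Ccnd1 were near the thresholds after 20 Gy. The Rb1 difference of 0.51 was below the fold threshold and was called after rescaling to TPM (0.59). That of Ccnd1 was -0.84 ± 0.34 (adjusted p = 0.0533). The libraries of the times did not overlap for 7 of the 10 genes after either dose, beside 62.8% of all genes after 5 Gy and 59% after 20 Gy. Ccne2 rose by 1.40 ± 0.12 after 5 Gy and 0.71 ± 0.12 after 20 Gy (adjusted p = 1.2e-06 and 3.6e-04). Ccne1 rose by 1.00 ± 0.17 after 5 Gy (adjusted p = 2.9e-04), and its difference of 0.10 after 20 Gy was not called (adjusted p = 0.628). Ccna2 fell by 2.42 and 1.82, Cdkn2c by 1.87 and 1.94, and Ccnd3 by 1.03 and 1.40 over the same interval. Ccnd1 fell by 0.86 ± 0.34 after 5 Gy (adjusted p = 0.0472), a call lost without replicate 1 or 2 at 12 h or replicate 1 or 3 at 24 h (0.0875 to 0.181), and with no filter, quantile normalization or rescaling to TPM (0.0716, 0.0585 and 0.0653). It was also lost with annotated rows alone (0.443) and in a fit of the groups compared (0.0594). With annotated rows alone the calls of Ccne2 after both doses and of Rb1 after 5 Gy were lost, and with the highest transcript those of Ccne2 after both doses, of Ccne1 after 5 Gy and of Cdkn1c after 20 Gy (-0.42, adjusted p = 0.237). Ccne2 after 20 Gy was below the fold threshold without replicate 2 at 24 h (0.58), and Cdkn1c after 20 Gy (-0.76 ± 0.24, adjusted p = 0.0167) was lost without replicate 2 at 12 h or replicate 1 at 24 h (0.0725 and 0.0727).

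Few of these genes were called between the doses. At 12 h none of the 10 was called between 20 Gy and 5 Gy by limma, beside 0.123% of all genes. Ccne2 and Ccna2 were higher after 20 Gy in all libraries, 2 of 10 genes without overlap, beside 12.8% of all genes, 6.39% of all genes being higher after 20 Gy. At 24 h, Ccna2 was higher after 20 Gy by 1.45 ± 0.26 (adjusted p = 0.00918), the 1 of 10 called, beside 2.42% of all genes. Libraries did not overlap for 3 of 10 genes, Ccna2 higher and Ccnd3 and Ccne1 lower after 20 Gy, beside 23.2% of all genes. It was not called in a fit of those 2 groups alone (adjusted p = 0.128). The change over time between the doses was called by limma for 0 of 10 genes and 0.553% of all genes. The largest were -0.90 ± 0.24 for Ccne1 and -0.69 ± 0.18 for Ccne2 (adjusted p = 0.124 and 0.111). Without replicate 2 at 24 h after 20 Gy, that of Ccne2 was called (-0.82, adjusted p = 0.0463).

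The balance within the families is given as shares of summed FPKM, with no test. The control libraries had a D cyclin sum of 344 ± 4.93 (SD, n = 3), followed by 404 ± 43.1 and 423 ± 39.9 at 12 h, and 201 ± 2.20 and 170 ± 29.3 at 24 h. Ccnd3 made up 79.8% to 84.9% of it in the group means. The E cyclin sum was 13.8 ± 1.57, then 2.87 ± 0.617 and 4.33 ± 0.597, then 9.12 ± 0.733 and 6.40 ± 0.619. The Ccne2 share of it was 30.8% in the control group, 41.3% and 41.9% at 12 h, and 52.0% and 56.3% at 24 h. No exposed group overlapped the controls in this share. Cdkn1b made up 29.1% ± 3.01 of the 3 inhibitors in the control group, 52.3% ± 0.582 and 50.7% ± 2.85 at 12 h, and 72.4% ± 5.81 and 67.9% ± 1.12 at 24 h. The ratio of the E cyclin sum to Ccna2 was 0.439 ± 0.0309 in the control group, 0.335 and 0.271 at 12 h, and 12.6 ± 4.23 and 1.80 ± 0.738 at 24 h.

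**Figure D3:**
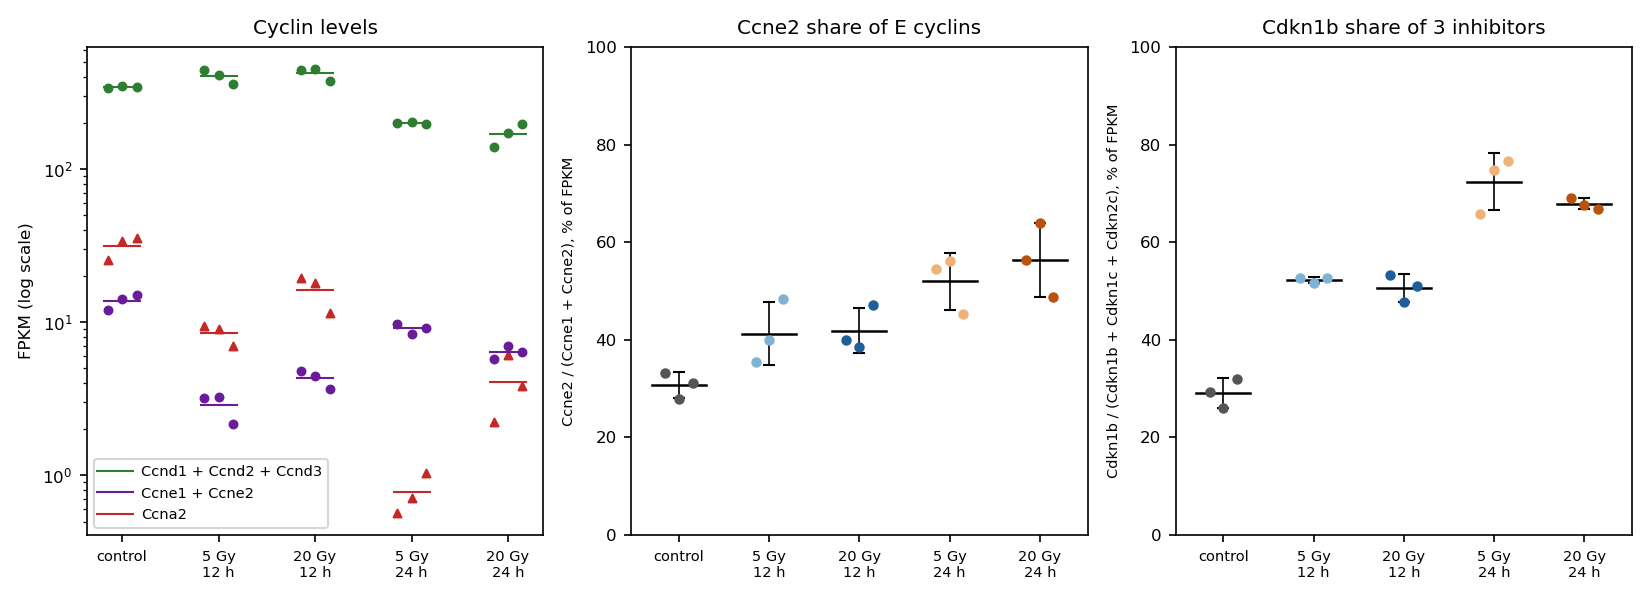
Left, summed FPKM of D cyclins and E cyclins and FPKM of Ccna2 on a log scale; middle, the Ccne2 percentage of E cyclin FPKM; right, the Cdkn1b percentage of FPKM of the 3 inhibitors, each by group with points for libraries and bars for means (whiskers, SD). The E cyclin sum is below Ccna2 in the control and 12 h groups and above it in the 24 h groups, where the ratio was 12.6 and 1.80.

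The members differed in how much of their level came from annotated transcripts. All of the Ccna2 sum and 97.0% of that of Ccnd3 lay in annotated rows, compared with 3.58% for Cdkn1b, 7.49% for Ccnd1 and 9.74% for Ccne1. For Cdkn1b, an unnamed transcript of 3 exons held 96.4% of the sum. The annotated row of Cdkn1b alone rose between 12 h and 24 h by 0.73 after 5 Gy and 0.87 after 20 Gy, whereas the gene sum gave -0.18 and -0.35, neither called.

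Other genes of the pathway were taken from 8 lists and tested in the same fit. The list counts stand beside 9.94% and 8.54% of all genes called at 12 h (5 Gy and 20 Gy), and 41.3% and 40.3% at 24 h. Among 8 CDK partners, 0 rose and 2 fell at 12 h after 5 Gy, and 1 rose and 3 fell at 24 h after 20 Gy. Cdk2, the partner of the E cyclins and cyclin A2, fell by 1.29 ± 0.17 at 24 h after 20 Gy, and Cdk4, a D cyclin partner, by 0.62 ± 0.07. Cdk7, a kinase that activates other CDKs, rose by 0.64 ± 0.12. Of 4 other CDK inhibitors tested (of 5 listed), 1 rose in every exposed group, and at 24 h the remaining 3 fell. The riser, Cdkn1a (p21), had a mean of 46.8 ± 13.4 FPKM in the control group and 640 ± 117 at 24 h after 20 Gy, a rise of 3.77 ± 0.33 (adjusted p = 9.1e-07). Cdkn3 and Cdkn2a fell there by 2.51 and 1.36.

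Of 18 E2F target genes of S phase, 0 rose and 17 fell at 12 h after 5 Gy, 0 and 15 after 20 Gy, and 1 rose and 17 fell at 24 h after either dose. Their median differences were -1.66, -1.04, -1.74 and -1.41, beside the medians of all genes given above. At 24 h after 20 Gy, Rrm2, a ribonucleotide reductase subunit, fell by 2.79 ± 0.36 and Mcm5, of the replicative helicase, by 2.67 ± 0.24, and Tyms, thymidylate synthase, rose by 0.72 ± 0.08. Between the doses at 12 h, 15 of the 18 were higher after 20 Gy without overlap, beside 6.39% of all genes, and 1 was called. Among 12 G2 and mitotic genes, 0 rose and 9 fell at 12 h after 5 Gy, 0 and 4 after 20 Gy, and 0 and 11 at 24 h after either dose. Cdc20, an activator of the anaphase-promoting complex, fell by 3.02 ± 0.19 and Ccnb1, cyclin B1, by 2.46 ± 0.26 at 24 h after 20 Gy.

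**Figure D4:**
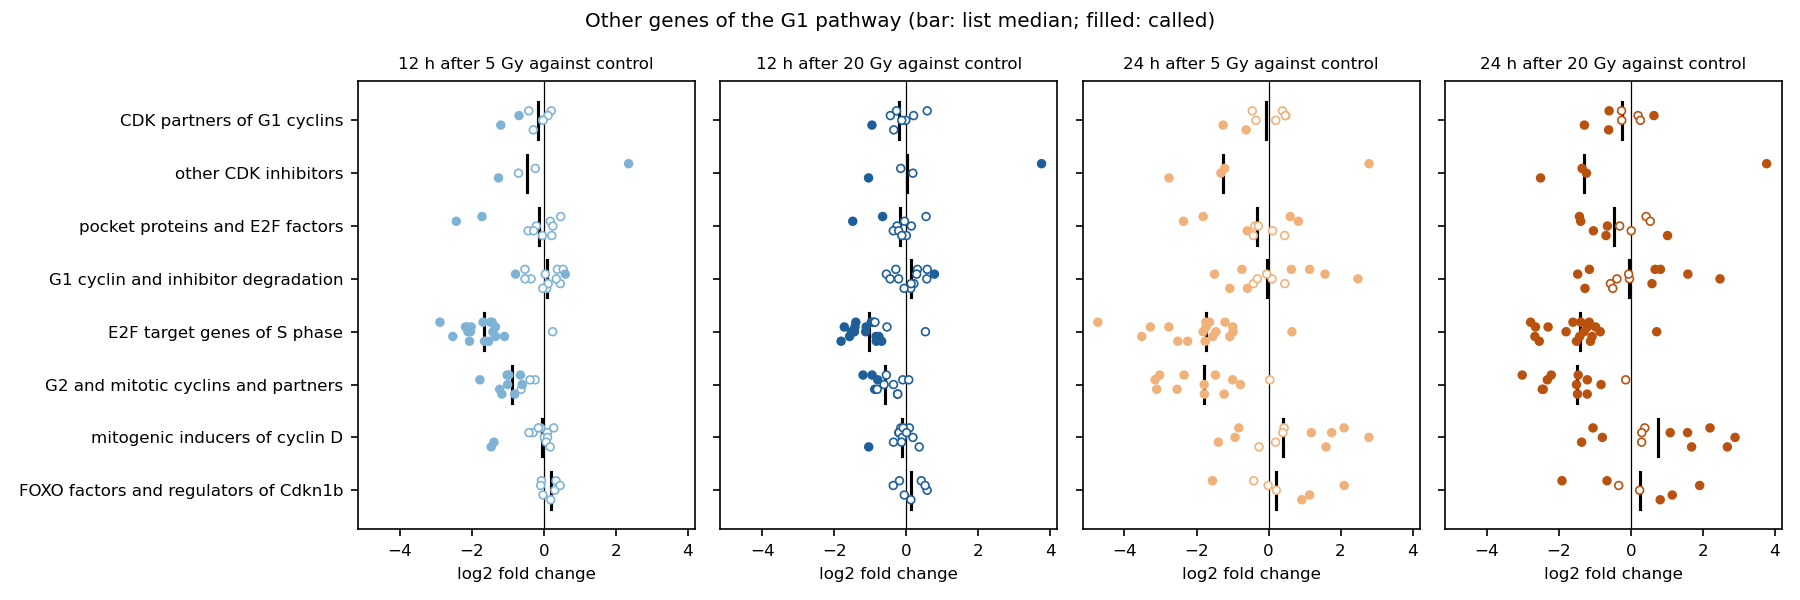
Log2 fold change against control (x axis, on log2(FPKM + 1)) of the tested genes of each pathway list (y axis) in the 4 exposed groups; filled points were called and bars are list medians. The median of the E2F targets lies between -1.74 and -1.04 in the 4 panels.

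Of 10 pocket protein and E2F genes tested, 0 rose and 2 fell at 12 h after each dose, 2 rose and 3 fell at 24 h after 5 Gy, and 1 rose and 5 fell after 20 Gy. The repressors E2f7 and E2f8 fell by 1.43 and 1.39 at 24 h after 20 Gy, and Tfdp2, an E2F partner, rose by 1.02. In that comparison 17% of all genes were called higher and 23.3% lower. Of 13 genes for the degradation of cyclins and inhibitors, 5 rose and 3 fell in it. Fbxw7, the receptor that marks cyclin E for degradation, rose by 2.47 ± 0.18, from 1.83 ± 0.29 to 14.8 ± 2.75 FPKM. Cks1b, a cofactor in the degradation of p27, fell by 1.48 ± 0.15. These were 1 of the 5 risers and 1 of the 3 fallers, and they do not give the direction of the list. Whether the degradation of cyclin E or p27 changed was not tested. Of 12 mitogenic genes tested, 6 rose and 3 fell, with Ets2 up by 2.89 and Jun up by 2.68, whereas Fosl1 fell by 1.37 and Ctnnb1 fell by 1.05. Of 7 FOXO genes and regulators of Cdkn1b, 3 rose and 2 fell. Foxo1, a transcription factor that AKT signalling holds out of the nucleus, rose by 1.15 ± 0.15, and the kinase Akt1 fell by 1.91 ± 0.08.

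The genes whose pattern over the 15 libraries was most like that of each member are given by Pearson r on log2(FPKM + 1), among 12131 named genes with a mean FPKM of at least 1. The libraries share groups and depth, so r is a description. For Ccna2 they were Kif2c and Cdca3 (r = 0.995 and 0.994), and for Cdkn2c Arhgap33 and Lsm3 (0.993 and 0.990). For Ccnd3 they were Lbh and Tln1 (0.991 and 0.989), for Rb1 Gga3 and Tcf20 (0.983 and 0.980), and for Ccnd2 LOC689757 and Ntn4 (0.963 and 0.944). For Ccne1 they were Cnn2 and Polr3g (0.958 and 0.956), and for Ccne2 Wdr76 and Tfdp1 (0.955 and 0.942). For Cdkn1c they were Foxl1 and Slc2a4 (0.955 and 0.953), for Cdkn1b Zfp839 and Pros1 (0.954 and 0.905), and for Ccnd1 Plac9 and Dhx58 (0.924 and 0.899).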

How the data were processed

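Poly-A RNA of 15 libraries was sequenced. The authors trimmed reads with Trimmomatic, mapped them to Rnor_6.0 with HISAT2 2.0.13, per the submitters' notes, assembled transcripts with StringTie and deposited FPKM values per transcript. The study also names Kallisto and edgeR, and counts were not analysed here. Of 85322 transcripts in 40272 loci, 4738 could not be assigned to 1 name and were left out, and the rest were summed to 37367 genes.

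The 17895 gene sums whose mean FPKM reached 0.5 entered limma 3.58.1 (R 4.3.3) as log2(FPKM + 1). The model held the 5 group means, left 10 residual degrees of freedom and used a trended prior, and 9 two-sided comparisons were adjusted by Benjamini-Hochberg over all genes. Calls needed an adjusted p under 0.05 with a change of 1.5-fold or more; the change over time between doses needed the adjusted p. Fold changes on this scale understate those of low genes, and p-values measure the spread between these libraries. The fit was tested on simulated data.

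In each library, 76.1% to 81.5% of low values were whole multiples of 1 step (within 0.05), which gave the depth. The members and lists were chosen with earlier results of these data known. Named genes were the 10 members, up to 2 rises and 2 falls per list called at 24 h after 20 Gy, and the 2 genes most like each member; endothelial and other markers were also named. Alternatives are given in the closing section. One gene that the rule names is not reported here.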

Additional observations from a re-analysis of the deposited data

How the results depend on the processing

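Of 1651 pairs of a member's comparison and an alternative, 1574 kept their side of the threshold, 57 lost and 17 gained the call, and 3 changed sign with a call before or after. Of the 1574, 53 changed sign and were called in neither fit. The causes were not tested. Scaling moved the median of all genes by over 0.1 at 24 h, from -0.05 to 0.06 after 5 Gy with TPM and from -0.14 to -0.03 after 20 Gy with quantile normalization. With a fold change of at least 2, 2 of the 10 genes were called at 12 h after 20 Gy (from 6). With annotated rows alone, 2 (5 Gy) and 1 (20 Gy) were called at 12 h and 5 between the times after 5 Gy (from 5, 6 and 8), and with the highest transcript of each gene 3, 3 and 5. Ccne1 was not tested with annotated rows alone, as its mean there was below the filter, so part of that drop is not a lost call. In a fit of only the groups compared, 0 were called between the doses at 24 h (from 1, which was Ccna2). The sign changes that involved a call were those of Cdkn1b between the times with annotated rows alone, 0.73 after 5 Gy and 0.87 after 20 Gy, and Ccnd1 after 5 Gy with the highest transcript, 1.04 (adjusted p = 0.488) against -0.86.

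Of all genes, a fold change of at least 2 left 588 and 433 at 12 h and 3584 and 3444 at 24 h against control (5 Gy and 20 Gy), 2834 and 2817 between the times, and 10 and 119 between the doses (12 h and 24 h). The main counts were 1779, 1528, 7395, 7219, 6508, 6489, 22 and 433. Between the doses at 12 h, 12 genes were called with a pseudocount of 0.1, 48 with quantile normalization, 6 with annotated rows alone and 2 in a fit of those groups. At 24 h the counts were 730 after rescaling to TPM, 246 with annotated rows alone and 37 in a fit of those groups.

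Leaving out each library in turn gave 5 to 6 and 4 to 6 called members at 12 h, 6 to 6 at 24 h after either dose, 7 to 9 and 5 to 7 between the times, 0 to 0 and 1 to 1 between the doses, and 0 to 1 for the change over time between doses. For all genes the ranges were 1465 to 1872, 1235 to 1526, 7099 to 7400, 6837 to 7438, 6253 to 6568, 5932 to 6796, 5 to 29 and 293 to 535. The 5 between the doses at 12 h came without any 1 of the 3 libraries at 12 h after 5 Gy.

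The replicate numbers gave no sign of pairing, though such correlations cannot show whether cultures were paired. Same-numbered deviations correlated at -0.177 to 0.232, with 4 of 30 pairs over 0.1. Differently numbered ones correlated at -0.209 to 0.203, with 9 of 60 over 0.1, and 4 of 15 samples correlated best with their own number. With the replicate number as a block, Ccnd2 at 12 h after 20 Gy was not called (adjusted p = 0.0516), and Cdkn1c at 12 h after 20 Gy (0.0487) and Ccnd1 between the times after 20 Gy (0.0437) were. Aligned bases over the longest transcript, an alternative chosen after seeing the data, moved 2 calls of Ccnd1 between the times (adjusted p = 0.057 after 5 Gy and 0.0353 after 20 Gy).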
